A study of Mus musculus with 2 samples.

Results

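The genes described here are the expressed pseudogenes of the newborn mouse thymus: genes whose type in the GENCODE M21 annotation contains the word pseudogene (immunoglobulin and T-cell receptor types left out) and whose deposited TPM reached 1 in each of the libraries. TPM is the share of a library's transcript molecules assigned to a gene after division by length, scaled so that every library has the same total. Of 43346 gene rows, 7795 were pseudogenes of these types and 563 met the rule. The members were chosen by TPM, so their levels below are a description. Total RNA came from the thymus of B6NCrl mice at postnatal day 0, with no treatment named and the sex not collected. Each library holds both lobes of 1 pup, pup 2 for replicate 1 and pup 3 for replicate 2, and both pups came from 1 pregnant female. Input was 10 ng, molecules above 200 nt were kept and spike-in RNA was added, per the labels. The design holds 1 group of 2 littermates, so every comparison between libraries is a description without a test.

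A pseudogene is a genomic copy of a gene that has lost the parent's intact reading frame or its place in a normal gene. Processed pseudogenes arise when a messenger RNA is reverse transcribed and inserted back into the genome, and therefore lack introns. Unprocessed pseudogenes arise by duplication of genomic DNA, and the same class holds pieces of mitochondrial DNA carried in nuclear chromosomes. Abundant messenger RNAs such as those of ribosomal proteins have many processed copies. The annotation adds the word transcribed where it records evidence of a transcript from the locus. In what follows, the parent of a pseudogene is the non-pseudogene transcript most similar to it in sequence, at 80% identity or more over at least 50% of the pseudogene's length.

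How closely a member matches its parent decides which reads can be told apart, so stretches of 5 members are shown with their parents, read from the GENCODE M21 transcripts (GRCm38), 5′ to 3′. Capitals mark bases that differ between the copy and its parent. Gm28438 (chr1:24612775-24613119, minus strand) and Gm29216 (chr1:24615706-24616197, minus strand) lie in a piece of mitochondrial DNA on chromosome 1. They copy mt-Nd3, a subunit of respiratory complex I, and mt-Co1, a subunit of cytochrome c oxidase. Gm13340 (chr2:22588103-22589647, minus strand) is a second copy of mt-Co1 on chromosome 2. For the first 2 of these the first 60 nt of the copy are shown, and for Gm13340 the first 90.
Gm28438: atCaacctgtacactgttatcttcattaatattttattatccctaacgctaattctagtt
mt-Nd3: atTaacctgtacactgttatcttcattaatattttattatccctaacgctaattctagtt
Gm29216: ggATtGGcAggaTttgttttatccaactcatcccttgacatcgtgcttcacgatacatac
mt-Co1: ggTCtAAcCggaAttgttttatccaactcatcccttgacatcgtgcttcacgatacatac
Gm13340: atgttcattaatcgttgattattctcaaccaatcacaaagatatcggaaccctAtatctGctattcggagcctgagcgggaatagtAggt
mt-Co1: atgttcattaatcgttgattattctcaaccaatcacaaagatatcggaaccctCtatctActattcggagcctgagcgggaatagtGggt
H3f3c (chr2:119665626-119666036, minus strand) is annotated as a processed copy of H3f3a, a gene of histone H3.3, and its first 150 nt are shown because they hold all of its differences.
H3f3c: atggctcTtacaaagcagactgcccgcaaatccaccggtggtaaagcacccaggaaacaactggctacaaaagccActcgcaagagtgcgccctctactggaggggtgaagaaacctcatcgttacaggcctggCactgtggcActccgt
H3f3a: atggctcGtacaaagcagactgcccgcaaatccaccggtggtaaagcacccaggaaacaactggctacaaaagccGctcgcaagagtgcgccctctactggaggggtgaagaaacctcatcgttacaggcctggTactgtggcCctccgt
Gm15387 (chr15:74093686-74094333, minus strand) is a processed copy of Hmgb1, a chromatin protein, and its first 60 nt hold its only difference.
Gm15387: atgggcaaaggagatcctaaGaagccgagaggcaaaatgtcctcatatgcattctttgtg
Hmgb1: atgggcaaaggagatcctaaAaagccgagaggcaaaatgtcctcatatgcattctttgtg
In the tokens that follow, the parent's base comes first, then the position counted from 1 at the first base of the copy, then the copy's base. Gm28438 differed from mt-Nd3 by T3C alone over 345 aligned nt. The aligned part of Gm29216 (483 of its 492 nt) carried only A13T, and the first bases outside it carried T3A, C4T, A6G, A7G and C9A. Gm13340 carried 37 differences over 1545 aligned nt, of which C54A, A60G and G87A fall in the stretch shown. H3f3c carried G8T, G76A, T135C and C144A over 411 nt, and Gm15387 carried A21G over 648 nt.

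The libraries held 39045711 and 41576378 expected counts over gene rows. Expected counts are the authors' estimate of reads per gene, in which a read that matches several genes is divided among them. The 12 thymus markers all passed 1 TPM in each library, from Aire at 7.22 and 8.34 TPM to Lck at 1261 and 1219 TPM. Of 5 markers of other tissues, 4 reached the same level. Hba-a2, a haemoglobin gene of red cells, stood at 1390 and 1242 TPM, and Pth of the parathyroid at 54.9 and 28.2 TPM. The part of blood and neighbouring tissue in the levels below was not tested. In whole tissue, fewer cells of a type and less RNA per cell cannot be told apart.

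The 563 members made up 4.03% of the 13957 genes that passed the same threshold. Their share of TPM was 6.34% in replicate 1 and 6.59% in replicate 2, a mean of 6.47% ± 0.179 (SD, n = 2). Of expected counts, which are not divided by length, they held 2.08% and 2.18%, a mean of 2.13% ± 0.0732 (SD, n = 2). The members were short, with a median length of 538 nt, and 485 of 563 had 1 exon. The other 7232 measured pseudogenes added little. Those below the threshold in both libraries, 7051 genes, held 0.0399% and 0.0330% of TPM, and 5147 of them had 0 counts in both, which allows up to 3 counts in each.

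A few members held most of this share. The 10 highest held 51.6% and 52.3% of the members' TPM, the 50 highest 87.7% and 88.0%, and the 100 highest 94.96% and 95.1%. By contrast the median member stood at 4.79 TPM, 360 members were below 10 TPM, 73 reached 100 TPM and 14 reached 1000 TPM. The highest was Gm28437, a copy of mt-Co3 on chromosome 1, at 8412 and 9314 TPM. Gm29216, the copy of mt-Co1 shown above, followed at 6303 and 6472 TPM. Gm10123 (chr9:96895658-96896147), a processed copy of Ppia, which encodes the proline isomerase cyclophilin A, stood at 5363 and 5874 TPM. Rps23-ps1 (chr3:37714740-37715164), a copy of the small-subunit gene Rps23, stood at 2013 and 1987 TPM. Across the 563 members, levels in the libraries followed each other closely (Pearson's r = 0.990 and Spearman's rho = 0.951 of TPM, r on the log2(TPM + 1) scale). These coefficients are across genes, which share both libraries and are not independent replicates.

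**Figure D1:**
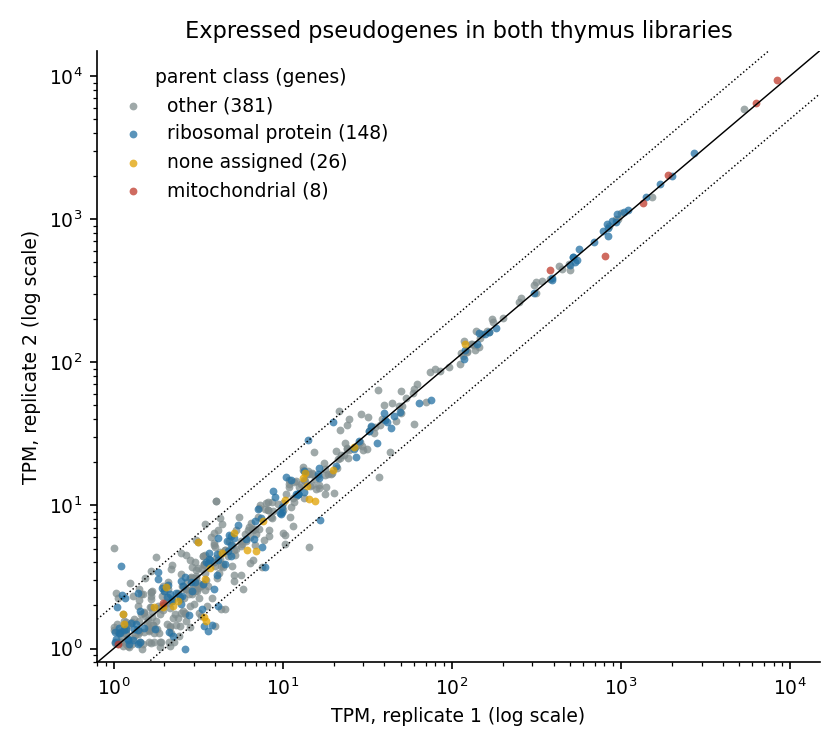
TPM of the 563 expressed pseudogenes in replicate 1 (x axis, log scale) and replicate 2 (y axis, log scale), 1 point a gene, coloured by parent class. The solid line marks equal levels and the dotted lines 2-fold. The 6 chromosome 1 copies of mitochondrial genes lie at 380 TPM or above, while most points lie below 10 TPM.

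By annotated type, processed pseudogenes were the most numerous, 446 of 5349 measured (8.34%), and held 60.1% ± 0.0847 of the members' TPM (SD, n = 2). Transcribed processed pseudogenes numbered 40 of 183 (21.9%) and held 8.73% ± 0.118. Unprocessed pseudogenes numbered 29 of 1951 (1.49%) and held 30.6% ± 0.252, nearly all of it in 8 copies of mitochondrial genes: the 21 others held 0.265% ± 0.0394. Transcribed unprocessed pseudogenes numbered 28 of 179 (15.6%) and held 0.412% ± 0.0407. The remaining members were 10 of 54 polymorphic pseudogenes, 6 of 58 with no further type, 4 of 15 transcribed unitary, 0 of 5 unitary and 0 of 1 translated unprocessed. The 3 transcribed types together had 72 of 377 measured genes at the threshold (19.1%), against 7.22% of all pseudogenes. The median level was 4.70 TPM for processed, 9.94 TPM for transcribed processed, 5.54 TPM for unprocessed and 8.39 TPM for transcribed unprocessed members.

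By parent class, 8 members copied mitochondrial genes, 148 copied ribosomal protein genes, 381 copied other genes and 26 had no parent at the thresholds used. Mitochondrial copies held 30.4% ± 0.213 of the members' TPM, ribosomal protein copies 36.3% ± 0.320, copies of other genes 32.8% ± 0.113 and members without a parent 0.482% ± 0.00599 (SD, n = 2). The order changed with the unit. Of the members' expected counts, mitochondrial copies held 37.6% ± 0.610, other copies 30.8% ± 0.184 and ribosomal protein copies 30.4% ± 0.372. The median length was 675 nt for mitochondrial, 580 nt for other and 465 nt for ribosomal protein copies. The 2 nuclear classes were close in counts: other copies held 31.0% and 30.7% in the libraries, and ribosomal protein copies 30.6% and 30.1%, lower in each.

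**Figure D2:**
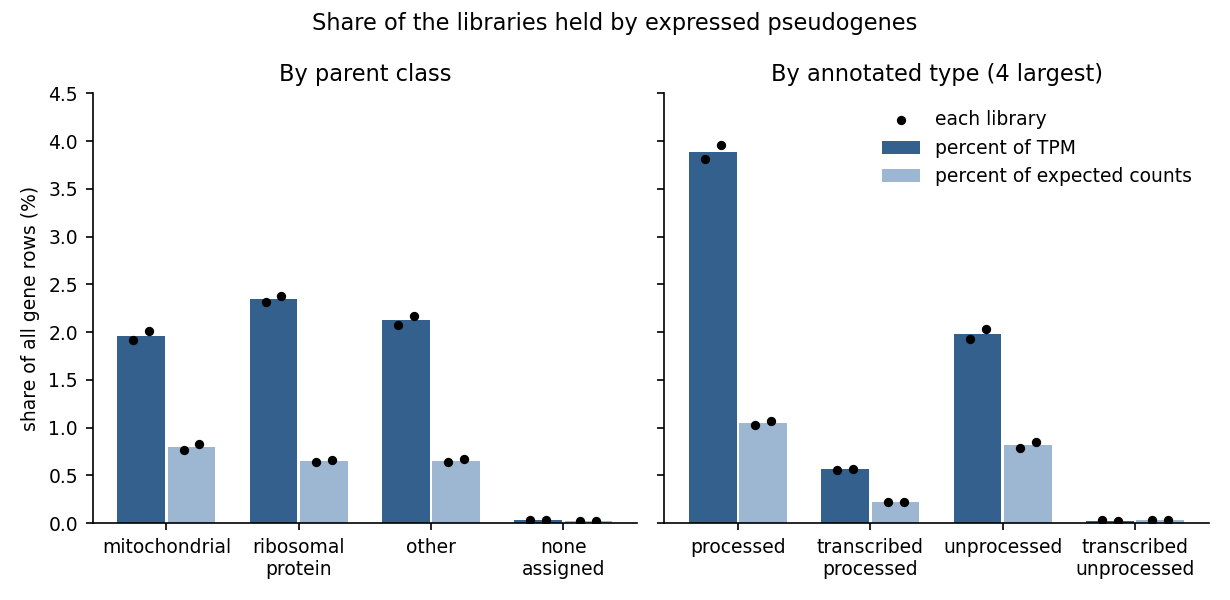
Share of all gene rows held by expressed pseudogenes, as percent of TPM (dark bars) and percent of expected counts (light bars), by parent class and by the 4 largest annotated types. Bars are means of 2 libraries and points are the libraries. In the mitochondrial, ribosomal protein and other classes the share of TPM is above the share of counts.

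The mitochondrial copies were 8 of 19 measured pseudogenes with a mitochondrial parent, and 6 of the 8 lie side by side within 3791 nt of the minus strand, chr1:24612407-24616197. These 6 held 1.91% and 2.01% of all TPM. For comparison, the 37 genes of the mitochondrial genome itself held 4.70% and 4.69%. Gm28437, which equals mt-Co3 over its whole 783 nt, stood at 8412 and 9314 TPM while mt-Co3 stood at 3348 and 2841 TPM. The copy was higher in both libraries, and replicate 2 had the higher value of the copy and the lower value of the parent. Gm29216 stood at 6303 and 6472 TPM, above mt-Co1 at 3260 and 3487 TPM. In expected counts, which are not divided by length, the order was reversed. The copy of 492 nt had 73043 and 80930 counts, and mt-Co1 of 1545 nt had 139000 and 160416. Gm28438 stood at 1355 and 1300 TPM, above mt-Nd3 at 388 and 448 TPM. Gm10222, a copy of the complex I gene mt-Nd4l, stood at 380 and 444 TPM against 133 and 132 TPM for its parent. The other 2 were below their parents. Gm28661 stood at 1895 and 2029 TPM and mt-Co2, a cytochrome c oxidase gene, at 3182 and 3261 TPM. Gm10925 stood at 804 and 552 TPM and mt-Atp6, a subunit of ATP synthase, at 9368 and 10111 TPM. The copies of Co1, Co3, Nd3 and Nd4l thus held 65.4% ± 0.652, 74.1% ± 3.60, 76.1% ± 2.40 and 75.6% ± 2.13 of the TPM of copy and parent together, and those of Co2 and Atp6 held 37.8% ± 0.728 and 6.54% ± 1.93 (SD, n = 2).

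The sums of copy and parent varied less between libraries than several of their parts. Gm28437 and mt-Co3 summed to 11759 and 12155 TPM, and Gm10925 and mt-Atp6 to 10172 and 10663 TPM. The deposited tables also give an interval of TPM for each gene, whose level is not stated. For Gm28437 it ran from 1898 to 9631 TPM in replicate 1 and from 3105 to 10160.5 TPM in replicate 2. For mt-Co3 it ran from 1909 to 9623 TPM in replicate 1, almost the same range. The intervals of copy and parent overlapped for Co3 and Co2 in both libraries and for Nd4l in replicate 2. They did not overlap for Co1, Nd3 or Atp6. Gm29216 shared 96.7% of its 100-nt windows with another gene, yet its interval was narrow, 6129 to 6239 TPM in replicate 1. The deposited TPM of 6303 lay just above that interval. Such values outside their own interval occurred for 6 members in each library. Copies with more differences were low. Gm13340 (chr2:22588103-22589647), at 97.6% identity to mt-Co1, stood at 1.06 and 1.07 TPM. Gm13341, at 95.9% identity to mt-Co2, stood at 1.97 and 2.08 TPM. The other 11 of the 19 were below the threshold and 8 of those had 0 counts in both libraries. Gm28439, named after its value was seen, equals the first 876 nt of mt-Nd4, shares every 100-nt window with it and lies next to the 6 copies, yet was listed at 0.12 and 0 TPM while mt-Nd4 stood at 954 and 1006 TPM.

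**Figure D3:**
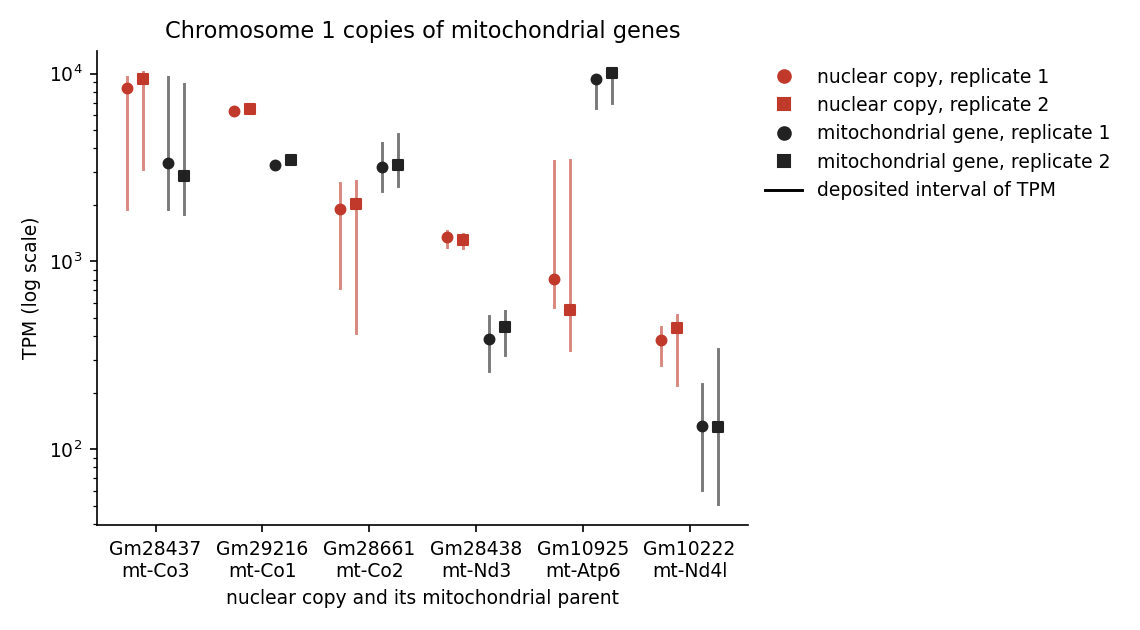
TPM (log scale) of the 6 chromosome 1 copies and of their mitochondrial parents in replicate 1 (circles) and replicate 2 (squares), with vertical lines for the deposited interval of each value. Intervals of copy and parent overlap in both libraries for Gm28437 with mt-Co3 and Gm28661 with mt-Co2.

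Ribosomal proteins build the small (Rps) and large (Rpl) ribosomal subunits. Of 1186 measured copies of their genes, 148 were expressed (12.5%), from 66 parents, with a median of 5.87 TPM. Their copies summed to 23171 and 23796 TPM, against 73522 and 75778 TPM for those parents, so copies held 24.0% and 23.9% of the family total. The highest had levels near or above their parents. Rps23-ps1 at 2013 and 1987 TPM stood 5.36 times above Rps23, which was at 369 and 378 TPM. Gm12918 (chr4:10848420-10849055) at 1404 and 1428 TPM was just below Rpl13 at 1443 and 1503 TPM. Rpl15-ps3 (chr9:22185607-22186221) at 1104 and 1167 TPM was above Rpl15 at 356 and 379 TPM. Rpl37rt (chr5:115102923-115110268), annotated as a transcribed processed pseudogene, stood at 1045 and 1114 TPM, above Rpl37 at 378 and 399.9 TPM. A 294-nt transcript held 98.6% ± 0.0212 of its TPM (SD, n = 2) in the deposited transcript tables. That transcript had 5926 and 6816 expected counts, fewer than the 8568 and 9771 of Rpl37, whose length was 867 nt. Gm10443 (chr6:86334031-86334240) at 948 and 1084 TPM was below Rps28 at 1281 and 1263 TPM. Among the 66 families, 13 had copies that summed above the parent, and the median share of copies was 5.20%.

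Other parents were 294 genes, and their 381 members held 15.4% and 15.5% of the summed TPM of copies and parents. Gm10123 at 5363 and 5874 TPM was below Ppia at 6277 and 7099 TPM, in both libraries by a similar ratio. Gm15387 at 1538 and 1438 TPM was below Hmgb1 at 2082 and 2034 TPM. Gm12481 (chr4:43664043-43664339), identical over its length to Serf2, stood at 997 and 1112 TPM, above the parent at 415 and 449 TPM. It overlaps an exon of Fam221b. Gm10221 (chr5:24581554-24581862) at 956 and 1006 TPM was above Atp5l, an ATP synthase subunit, at 214 and 222 TPM. Gm12338 (chr11:75599763-75599954), a copy of the cytochrome c oxidase gene Cox7c, stood at 935 and 999.6 TPM against 763 and 773 TPM, and lies in an intron of Pitpna on the opposite strand. H3f3c, with its 4 differences, stood at 450.2 and 451 TPM, below H3f3a at 2325 and 2387 TPM. Gm1821 (chr14:46084028-46085000), a transcribed copy of the ubiquitin gene Ubb at 98.5% identity, stood at 502 and 443 TPM against 2609.6 and 2726 TPM.

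The members came from 366 parents, of which 267 had 1 expressed copy and 34 had 3 or more. Hmgb1 had the most, 14 of 72 measured copies, which summed to 1723 and 1599 TPM. Gm15387 alone held 89.3% and 89.96% of that, and the median copy stood at 2.20 TPM. Gapdh, the glycolytic enzyme with 178 measured copies, had 9 expressed, none above 13.3 TPM on average, and together they held 3.67% ± 0.280 of the family's TPM (SD, n = 2). Ppia had 7 of 20, with 99.7% of their TPM in Gm10123 in both libraries. Rpl35a had 6 of 30 and Rps2 had 6 of 79. Of the copies of Rpl35a, 5 stood at 10 TPM or more, with a median equal to the highest mean of 12.1 TPM, and the lowest had a mean of 1.495 TPM. Every window was shared with another gene by 5 of the 6. The copies of Rps2 had a lowest mean of 1.07 TPM, a median of 1.21 TPM and a highest of 47.1 TPM. The sixth parent was Cdh11, a cadherin for which all 6 measured copies were expressed. They summed to 78.0 and 74.4 TPM, against 2.83 and 3.27 TPM for Cdh11. Of these, 5 lie within chr8:19682449-20582771. The highest was Gm21092 (chr8:20567597-20582771), named after its values were seen, at 21.97 and 21.5 TPM. Next was 2610005L07Rik (chr8:20385782-20424814) at 21.3 and 21.03 TPM and 93.2% identity. These 6 shared no 100-nt window with Cdh11, and between 10.9% and 93.8% of their windows with some other gene.

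Unprocessed and rarer types outside the mitochondrial set were low. Tmem181b-ps (chr17:6438524-6467022) at 31.4 and 24.9 TPM was the highest transcribed unprocessed member and stood above its parent Tmem181a at 17 and 17.4 TPM. Gm10499 (chr17:36141758-36145923), most similar to the class I histocompatibility gene H2-Q4 at 85.9% identity, stood at 26.8 and 25.5 TPM against 15.1 and 12.5 TPM. Polymorphic pseudogenes are intact in some strains and disrupted in others. Their highest member, H2-T10 (chr17:36115876-36121465), also of the histocompatibility complex, stood at 24.7 and 24.3 TPM. Clec7a, which encodes the beta-glucan receptor dectin-1 of myeloid cells, stood at 7.65 and 7.77 TPM. Cd1d2, a paralogue of the lipid-presenting gene Cd1d1, stood at 3.98 and 5.13 TPM, against 55.8 and 44.0 TPM for Cd1d1. Of the unitary kind, which have no functional relative left in the genome, 4 were expressed, led by Thap6 at 6.94 and 4.80 TPM, which overlaps an exon of Rchy1. With no further type, Gm9806 at 10.4 and 10.98 TPM was the highest and overlaps an exon of Vps13a.

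Among the 26 members without an assigned parent, Rps4l (chr6:148354656-148355598) stood apart at 120.5 and 135 TPM. It lies in an intron of Tmtc1 on the opposite strand and shared 1.66% of its 100-nt windows with another gene. The next, 2810025M15Rik, stood at 26.6 and 25.6 TPM and overlaps an exon of Rasal2. BC064078 stood at 13.99 and 13.7 TPM and lies between genes. The use of strand in counting is not given in the sources used here, so reads of a member and of a gene that overlaps it on the other strand may not have been told apart.

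Expressed pseudogenes were closer to their parents than the others. The median identity was 99.1% (middle range 97.3% to 99.7%, the quartiles) for 537 expressed members with a parent and 92.4% (87.4% to 97.2%) for 5739 pseudogenes below the threshold. The median parent stood at 435 TPM for the first and 50.6 TPM for the second. Where the parent stood at 100 TPM or more, the expressed share was 1.24% of 484 copies at 80 to 85% identity, 1.38% of 581 at 85 to 90%, 1.96% of 713 at 90 to 95%, 12.8% of 343 at 95 to 97%, 33.8% of 376 at 97 to 99% and 70.2% of 309 at 99% or above. With parents at 1 to 100 TPM the same shares ran from 1.85% of 216 at 80 to 85% to 37.6% of 170 at 99% or above. With parents below 1 TPM, 0 of 225 copies at 95 to 97%, 0 of 424 at 97 to 99% and 0 of 437 at 99% or above were expressed. At 95% identity or above, expressed copies with a measured parent were therefore seen only beside parents at 1 TPM or more. Of 175 pseudogenes identical to the parent over their whole length, 77 were expressed. With the parent at 100 TPM or more, 55 of 66 were, and 7 had 0 counts in both libraries.

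**Figure D4:**
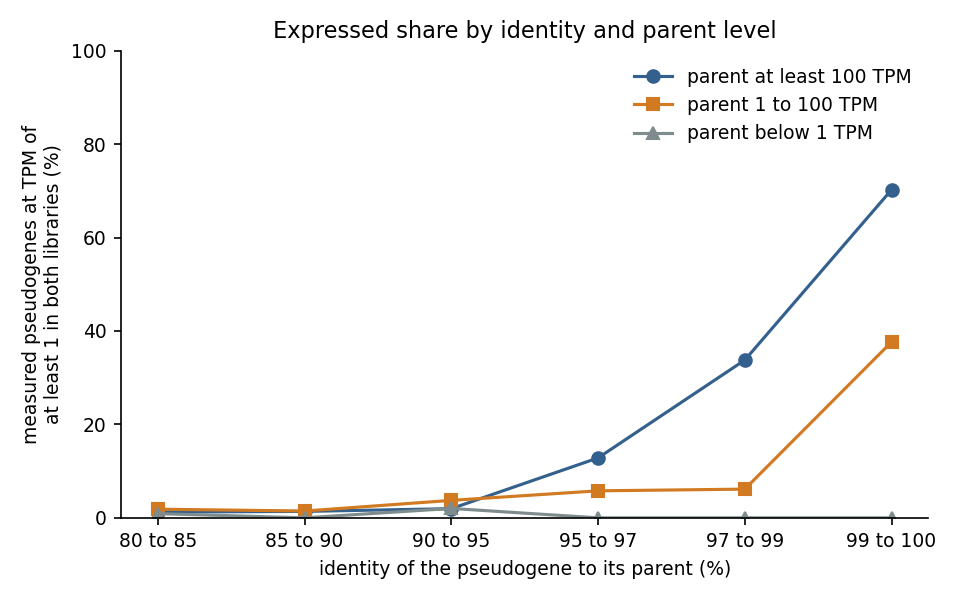
Percent of measured pseudogenes that passed 1 TPM in each library (y axis) by identity to the parent (x axis, percent), for parents at 100 TPM or more, 1 to 100 TPM and below 1 TPM. The first line rises to 70.2%, the second to 37.6%, and the third is at 0 from 95% identity on.

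To see how much sequence a member has of its own, each stretch of 100 nt was looked up in the transcripts of all other genes, on both strands. The length of 100 nt follows the deposited effective lengths, which are 99 nt shorter than the transcripts. The median member shared 50.9% of its windows. Every window was shared by 96 members, which held 66.4% ± 0.510 of the members' TPM (SD, n = 2). Some were shared by 412 members, which held 33.1% ± 0.468. None was shared by 55 members, which held 0.473% ± 0.0419 and had a median of 2.50 TPM, against 38.1 TPM where every window was shared. Of the 73 members at 100 TPM or more, 67 were at 99% identity or above and 43 shared every window. Across the 563 members, TPM and the share of windows had a Spearman's rho of 0.499, a description across genes that share libraries and families.

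The members with no shared window give levels that do not rest on stretches of 100 nt identical to another gene. Bambi-ps1 (chr2:122466935-122467526), a processed copy of Bambi, a decoy receptor of the TGF-beta family, led them at 50.8 and 49.4 TPM, from 738 and 775 expected counts. At 88.6% identity it stood above Bambi, at 3.64 and 3.65 TPM in the same libraries. Pisd-ps1 (chr11:3125904-3131004), a copy of the mitochondrial lipid enzyme gene Pisd at 94.1% identity, stood at 15.7 and 13.1 TPM against 40.6 and 42.4 TPM. Ppp4r1l-ps (chr2:173579320-173659640) stood at 15.6 and 10.7 TPM, and BC064078 is given above. Rpl39-ps, at 33.3 and 35.97 TPM, belongs to this set only by its M21 transcript of 151 nt. The deposited table gives it a length of 355 nt, from a transcript that M21 does not hold. For 429 of 563 members all deposited transcript versions are in M21, and for the other 134 such differences can touch the window counts.

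The deposited tables give the spread of each gene's count over repeated divisions of the ambiguous reads, expressed here as a percent of the mean count. Its median was 9.57% and 8.87% for the members in replicates 1 and 2, and 0% for 12309 protein-coding genes at the same TPM. It was below 5% in both libraries for 169 members (30.0%) and for 12081 of those protein-coding genes (98.1%). It was above 50% in at least 1 library for 22 members (3.91%), of which 14 shared every window, and for 9 protein-coding genes. The spread did not follow sharing alone. Of the 55 members with no shared window, 35 had a spread of 0% in both libraries and 47 were below 5% in both. The largest value among these 55 in replicate 1 was 38.6%. Gm10123 and Rps23-ps1 share every window, yet their spread was 0.431% and 0.462% in replicate 1. Gm28437 and Gm10925 also share every window, with 39.5% and 56.2%. Bounds of the deposited TPM interval lay over 2-fold apart in both libraries for 251 members and over 10-fold for 17.

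Set against their parents, which TPM allows because it is per length, most members were far lower. The median ratio of member to parent was 0.0190 over 533 members with a measured parent, 0.00609 for ribosomal protein copies, 0.0247 for other copies and 1.25 for mitochondrial copies. The first of these moved with the threshold that chose the members, to 0.0102 at 0.5 TPM and 0.0388 at 2 TPM. Members stood above the parent in 61 cases, 14 of 148 ribosomal protein copies, 43 of 377 other copies and 4 of 8 mitochondrial copies. By type, 9 of 20 transcribed unprocessed, 8 of 28 unprocessed, 7 of 37 transcribed processed and 37 of 442 processed members did so. Over 533 members the level of the member and that of the parent had a Pearson's r of 0.0880 on the log2(TPM + 1) scale and a Spearman's rho of 0.0229, given as a description across genes. Among 343 parents of at least 10 TPM, copies held less than 10% of the family's TPM for 224. Copies held more than the parent for 54 of 362 measured parents.

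Gm10177 (chr9:37252922-37253365) is a transcribed copy of Sec61g, a subunit of the protein-translocating channel. It stood at 856 and 891 TPM and Sec61g at 24.1 and 29.2 TPM, a ratio of 32.8. Gm15500 (chr7:114705217-114706235), a transcribed copy of Rpl5, stood at 779 and 821 TPM and Rpl5 at 55.6 and 45.7 TPM. Gm15500 shared 99.9% of its windows with other genes, and its 1019-nt transcript, annotated as a processed transcript, held 100% of its TPM. The 894-nt transcript of Gm15500 that is annotated as the pseudogene stood at 0 TPM in both libraries. Of the TPM of Rpl5, 54.7% ± 4.22 (SD, n = 2) was in a transcript with a retained intron and 27.1% ± 3.33 in the 2045-nt coding transcript. For Ppia, 78.5% ± 0.559 was in a transcript annotated for nonsense-mediated decay and 2.21% ± 0.0636 in a 1170-nt coding transcript. The part of the transcript models in the split between these parents and their copies was not tested.

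**Figure D5:**
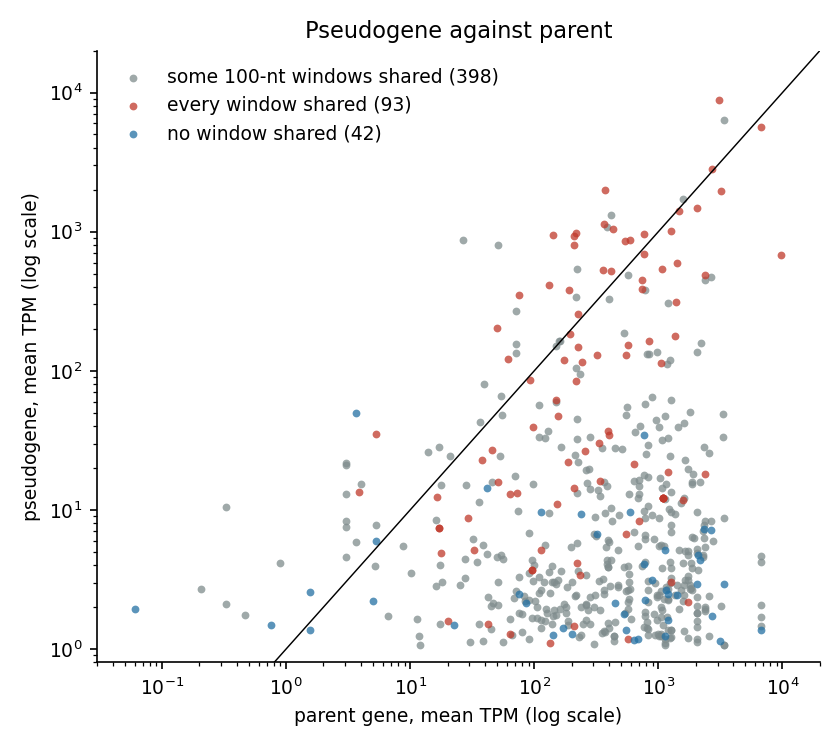
Mean TPM of each pseudogene (y axis, log scale) against that of its parent (x axis, log scale), coloured by the share of its 100-nt windows found in another gene. The line marks equal levels: 61 of 533 members lie above it, and members with every window shared reach the highest levels.

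Reading frames were compared for 517 members whose nuclear parent has a coding sequence in the transcript that aligned best. That coding sequence need not be the longest of the parent gene. The longest frame from an ATG reached 90% of the length of the parent's coding sequence or more for 216 members (41.8%), among them 74 of 147 ribosomal protein copies (50.3%) and 142 of 370 other copies (38.4%). It was below 50% of that length for 209 members. Of 5491 pseudogenes below the threshold, 825 (15.02%) had a frame that long and 3629 (66.1%) one below 50%. A frame of this length says nothing of translation, which was not measured. Identity differs between these sets, as given above. By place, 333 members lay between genes and held 77.3% ± 0.403 of the members' TPM, 92 lay in introns on the opposite strand, 73 in introns on the same strand and 61 overlapped an exon of another gene (SD, n = 2). Exon overlaps were found for 10.8% of members and 3.89% of the pseudogenes below the threshold.

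The lists of likely parents were described as wholes. Of all 13304 detected genes outside the pseudogene types, 356 (2.68%) had an expressed copy, and the median level of the 13304 was 15.6 TPM. Of 15 mitochondrial protein and ribosomal RNA genes, all were at 1 TPM or more in both libraries and 6 had an expressed copy. Of 87 cytoplasmic ribosomal protein genes, 85 passed 1 TPM, the median level was 950.5 TPM, and 66 had an expressed copy. Of 52 common parents of processed pseudogenes, such as actins, tubulins, glycolytic enzymes and chaperones, each passed 1 TPM, the median level was 1026 TPM, and 37 had an expressed copy, 81 copies in all. None of the 8 factors of nonsense-mediated decay, the pathway that degrades messages with early stop codons, had one. Their median level was 19.5 TPM, and each passed 1 TPM. None of the 12 thymus markers had an expressed copy either, at a median of 343 TPM. At the share over all detected genes, a count of 0 in lists of 8 and 12 shows nothing particular to them.

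Between libraries, 359 members had a mean count of at least 50, and 11 of them (3.06%) differed over 2-fold after scaling of the counts: 8 were above in replicate 1 and 3 in replicate 2. The number depended on the filter, with 24 at a minimum mean count of 10, 0 at 500 and 7 at a threshold of 2 TPM. Among all 13194 genes at the same TPM and count, 0.675% differed as much, 0.591% with the larger value in replicate 1 and 0.0834% with the larger value in replicate 2. Of 12097 protein-coding genes so chosen, 0.207% did. The median absolute difference was 1.13-fold for the members and 1.09-fold for all such genes. The libraries are 1 pup each, so no difference has a replicate check. Members over 2-fold were all processed copies except Serpinb10, a polymorphic member, and Hist1h2aj, an unprocessed one.

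Gm10359 differed most, with 1.00 and 5.06 TPM from 26.6 and 146 expected counts, 5.14-fold higher in replicate 2. It is a processed copy of Gapdh identical over its whole length, and Gapdh itself differed by 0.24 on the log2 scale. The spread of its count over divisions of ambiguous reads was 57.1% and 37.6%. Hist1h2aj, a histone H2A copy, stood at 21.4 and 45.8 TPM, while its parent Hist1h2ai stood at 137 and 81.1 TPM, the opposite order. Gm8226, a copy of Rpl7a, stood at 14.03 and 28.8 TPM. In the other direction, Gm15459, a copy of the chaperone gene Hspa8, stood at 3.99 and 1.44 TPM, with Hspa8 at 1509 and 2083 TPM. Gm14567, identical to a part of Polr2k, a subunit of RNA polymerases, stood at 37.3 and 15.7 TPM. For these 5 members the spread of the count lay between 17.4% and 59.0%. Some other members over 2-fold had lower values, with 7.04% and 4.51% for Serpinb10 and 11.3% and 16.8% for Gm10355. Gm2810 had 15.7% and 34.1%. The lowest spread among members over 2-fold was that of Hmgb1-ps8. It lies within Gm26740, H60b and Raet1e, in an intron on the same strand for at least 1 of them. It stood at 14.3 and 5.11 TPM from 223 and 85.8 expected counts, 2.71-fold higher in replicate 1, with a spread of 0.0717% and 0.501% and 0.190% of its windows shared. Hmgb1 itself stood at 2082 and 2034 TPM.

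Just inside the threshold were Gm10359 (1.00 and 5.06 TPM), Gm10293 (1.00 and 1.42 TPM), Gm10051 (2.65 and 1.00 TPM) and Gm7645 (1.47 and 1.00 TPM). Just outside were Gm9845 (1.01 and 0.99 TPM), Gm5943 (1.18 and 0.99 TPM), Gm1866 (0.99 and 2.58 TPM) and Tdpx-ps1 (0.99 and 1.31 TPM). All 8 are processed copies, and their expected counts lay between 10.1 (Gm10051, replicate 2) and 146 (Gm10359, replicate 2) in each library. A further 114 pseudogenes reached 1 TPM in replicate 1 only and 67 in replicate 2 only.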

How the data were processed

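Per the labels, total RNA of 2 thymus samples was sequenced, 1 library a pup. For each, the authors deposited a gene and a transcript table. The authors' expected counts are raw estimates and need not be whole. The authors scaled TPM to transcript length and the library's sum, and FPKM to length and library size. The authors also deposited the percent of a gene's TPM in each transcript. The build is mm10, per the labels, and the annotation M4, per the deposited read-me texts. Aligner, quantifier and strand use: not given in the sources used here.

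Types, symbols and positions came from GENCODE M21 (GRCm38) by gene identifier (version ignored), found for 42462 rows. The remaining 884 rows carried 0.266% and 0.225% of expected counts. Shares are of all gene rows, and spike-in rows were left out. Parents were found with blastn 2.17.0 (word size 11, E-value 1e-10, both strands) among transcripts of genes that are no pseudogene. Genes overlapping the member's own position were left out as parents, a step chosen after the files were seen, and the highest bit score decided. Windows of 100 nt were matched exactly. With identical copies, levels are uncertain, since reads were divided by the authors' estimate.

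Expected counts, rounded to whole numbers, were scaled with edgeR 4.0.16 (TMM, R 4.3.3). Fold changes divide the scaled count of replicate 2 by that of replicate 1, each raised by a prior count of 0.5. Depth was 39045711 and 41576378 expected counts, and a floor of 3 counts covers counting error only. The samples are littermates, so the spread holds biological and technical parts together. Tables and plots were made in Python 3.11.15 (numpy 2.4.6, pandas 2.3.3, matplotlib 3.10.9, scipy 1.17.1). On simulated data, 100% of 50 copies were returned to their parent at each of 0%, 1%, 5% and 12% substitutions. These were whole transcripts with substitutions only, so the result does not cover shortened copies, insertions, deletions or the step on overlapping genes. For replicate 2 against replicate 1, 100% of 200 genes changed 4-fold and 0.0646% of 13936 unchanged genes exceeded 2-fold. These counts were drawn with the same built-in spread for every gene and without division of ambiguous reads. The result therefore gives no rate of false calls for the members.

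The members, lists and thresholds were chosen with earlier results of these data known. The genes named are the 15 highest members, the 6 highest of each type, parent class and window class (none or all shared), the 6 largest differences each way, 4 on each side of the threshold, the 6 parents with most copies, and their parents and hosts. Some genes under this rule are not reported here. H3f3c, Gm13340 and Gm13341 were added to these with their values known. The alternatives varied the threshold, unit, scaling (DESeq2 1.42.0), filters, parent and window definitions, and used each library alone. The restriction to members with the same transcript versions was added after seeing the data.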

Additional observations from a re-analysis of the deposited data

Results flagged for a closer look

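Gene rows with an Ensembl identifier but no match in the M21 annotation held signal that no comparison above uses. There were 884 such rows, with 103942 expected counts in replicate 1 and 93596 in replicate 2, and 86 of them passed 1 TPM in each library. Their type is not known here, so pseudogenes among them are not counted.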

How the results depend on the processing

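Of 49 alternative values, 31 stayed within the replicate spread, or within 1.5 times for counts of genes, and 18 did not. The number of expressed pseudogenes, 563 as reported, was 777 at a threshold of 0.5 TPM and 396 at 2 TPM. It was 490 at an FPKM of at least 1. These numbers are within 1.5 times but depend on the threshold. The shares of TPM and counts held by the members stayed within the replicate spread at 0.5 and 2 TPM. At 0.5 TPM the median share of windows found in another gene was 38.4% and the median ratio to the parent 0.0102. At 2 TPM they were 60.4% and 0.0388, and 7 members were over 2-fold. Members whose exons lie on exons of another gene, left out, took the shares of TPM and counts to 5.98% and 2.00%. In expected counts, mitochondrial and ribosomal protein copies held 37.6% and 30.4% of the members' total. With 50-nt windows the median shared was 73.0%. The ratio to the parent was 0.0169 from counts divided by annotated length and 0.0155 for members with the same transcript versions. The members over 2-fold numbered 24 at a minimum mean count of 10 and 0 at 500, where no test applies. With 1 library alone, the mitochondrial share ran from 30.1% to 30.5%, the median share of windows from 44.4% to 49.7%, the ratio to the parent from 0.0130 to 0.0156, and the number of members from 630 to 677. The comparison of libraries has no value with 1 library. No paired analysis was possible because the design holds 1 group. Depth limits the 204 members with a mean count below 50, which enter no fold comparison. The spread of the count over divisions of ambiguous reads was below 5% in both libraries for 169 members.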
